A study of Mus musculus with 6 samples.

Results

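Chemokines are small secreted proteins that guide the migration of cells carrying matching receptors, and they are named by the spacing of their first cysteines, as CC or CXC. Basal cells form the outer layer of the mammary epithelium, next to the stroma, and include the contractile myoepithelial cells. Of the 22180 genes measured with exactly 1 gene symbol, 10 chemokine ligand genes are described here, namely Ccl2, Ccl7, Ccl20, Cxcl1, Cxcl2, Cxcl5, Cxcl10, Cxcl12, Cxcl14 and Cxcl16. They were taken from a list by symbol and were not selected on a measured threshold. The list was chosen with earlier results of these data known. Shares of the 10 set beside shares of all genes are therefore descriptions and not tests. Each of the 10 had 1 row, or probe set, in the table.

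The study measured RNA from freshly sorted mammary basal cells on whole-transcript microarrays. There were 3 arrays from mice labelled Trp53-/-, p16ink4a-/- and p19arf-/-, here called knockout, and 3 from wild type mice. Trp53 encodes p53, and p16ink4a and p19arf are both products of Cdkn2a. All animals were virgin females of 8 to 14 weeks, and red cells, leukocytes and endothelial cells were stained or depleted before the sort. No label says whether the knockout acts in all tissues or whether a sample pooled several animals, and the p-values below measure the spread between samples labelled as biological replicates.

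The values are log2 signals after robust multi-array averaging (RMA), and the number of arrays limits their precision. Pearson correlations between arrays, across rows, lay between 0.961 and 0.978. Cdkn2a read 6.25, 6.31 and 6.39 on the knockout arrays and 6.42, 5.84 and 6.48 on the wild type arrays, which overlapped. The sources used here do not place its probes relative to the deleted part, and Trp53 was not analysed here, which leaves the labels unchecked by both genes. Of the basal markers, 11 of 12 were measured and all 11 lay above the level of silent genes defined below, with Krt14, the basal keratin, at 13.27, 13.27 and 13.21 in knockout cells and 13.29, 13.51 and 13.30 in wild type cells, narrowly above every knockout array. Luminal keratins were bright as well, Krt8 at 11.38 and Krt18 at 11.3 on average over the 6 arrays.

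Inflammatory chemokines such as Cxcl1, Cxcl2, Ccl2 and Ccl20 are known for rapid induction through NF-kappaB, and Cxcl10 for induction by interferon. Cxcl12 and Cxcl14 are known as constitutively made chemokines of many epithelia and stromal cells. Human breast myoepithelial cells are known to make CXCL14 in tumours. RefSeq promoter sequence of build GRCm38.p6 was at hand for 6 of the 10 genes, and the stretches just upstream of the start of 4 inducible ones are shown so that the elements they are known for can be seen. They are Cxcl1 (chr5:90891095-90891244, plus strand), Cxcl2 (chr5:90903749-90903898, plus strand), Cxcl10 (chr5:92348890-92349139, minus strand) and Ccl20 (chr1:83116616-83116765, plus strand), each written 5′ to 3′ up to the last base before the start. Capitals mark matches to the NF-kappaB consensus, to an interferon-response core (TTTC, any 2 bases, TTTC) and to the AP-1 element TGANTCA, searched on both strands.
Cxcl1: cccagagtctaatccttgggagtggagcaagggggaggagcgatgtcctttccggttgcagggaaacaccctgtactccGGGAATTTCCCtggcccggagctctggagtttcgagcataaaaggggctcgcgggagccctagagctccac
Cxcl2: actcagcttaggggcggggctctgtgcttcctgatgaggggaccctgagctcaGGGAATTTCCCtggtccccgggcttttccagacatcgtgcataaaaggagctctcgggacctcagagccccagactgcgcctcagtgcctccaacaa
Cxcl10: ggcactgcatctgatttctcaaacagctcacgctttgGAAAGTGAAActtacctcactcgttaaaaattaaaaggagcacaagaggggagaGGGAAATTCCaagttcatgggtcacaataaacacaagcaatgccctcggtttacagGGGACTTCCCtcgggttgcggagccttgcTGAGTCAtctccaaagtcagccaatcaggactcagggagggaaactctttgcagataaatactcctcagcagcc
Ccl20: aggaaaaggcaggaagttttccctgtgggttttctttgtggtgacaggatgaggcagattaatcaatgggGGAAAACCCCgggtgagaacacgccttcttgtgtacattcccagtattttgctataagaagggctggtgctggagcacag

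Cxcl1 and Cxcl2, which are neighbours, carried the same 11 letters, which match the NF-kappaB consensus on both strands in overlapping positions, starting 71 bases before the start of Cxcl1 and 97 before that of Cxcl2. Cxcl10 held 2 NF-kappaB matches, 1 interferon-response core on the reverse strand and 1 AP-1 element, and Ccl20 held 1 NF-kappaB match on the reverse strand. In the 250 bases upstream of Cxcl12 there was no match to any of these motifs, and upstream of Cxcl14 there was 1 interferon-response core. Among 32851 promoters searched over the same length, 3.9% held the NF-kappaB consensus, 2.98% the interferon-response core and 6.75% the AP-1 element. A match describes letters in a window and shows neither binding nor a cause.

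The table holds no call of presence, so a level was called above background when it exceeded 5.52, the 95th percentile of the mean levels of 1405 olfactory, vomeronasal and trace amine receptor genes, which basal cells are taken to keep silent. By this measure 8 of the 10 chemokines were above background in knockout cells and the same number in wild type cells, while 55.4% of all genes were, by their mean over the 6 arrays. Ccl2, Ccl7, Cxcl1, Cxcl2, Cxcl12, Cxcl14 and Cxcl16 were above it on every array. Cxcl10 crossed it on some arrays of each genotype, and Ccl20 and Cxcl5 stayed below it on all 6. Probe sets differ in how brightly they read, so the levels of different genes are not ranked against each other.

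**Figure D1:**
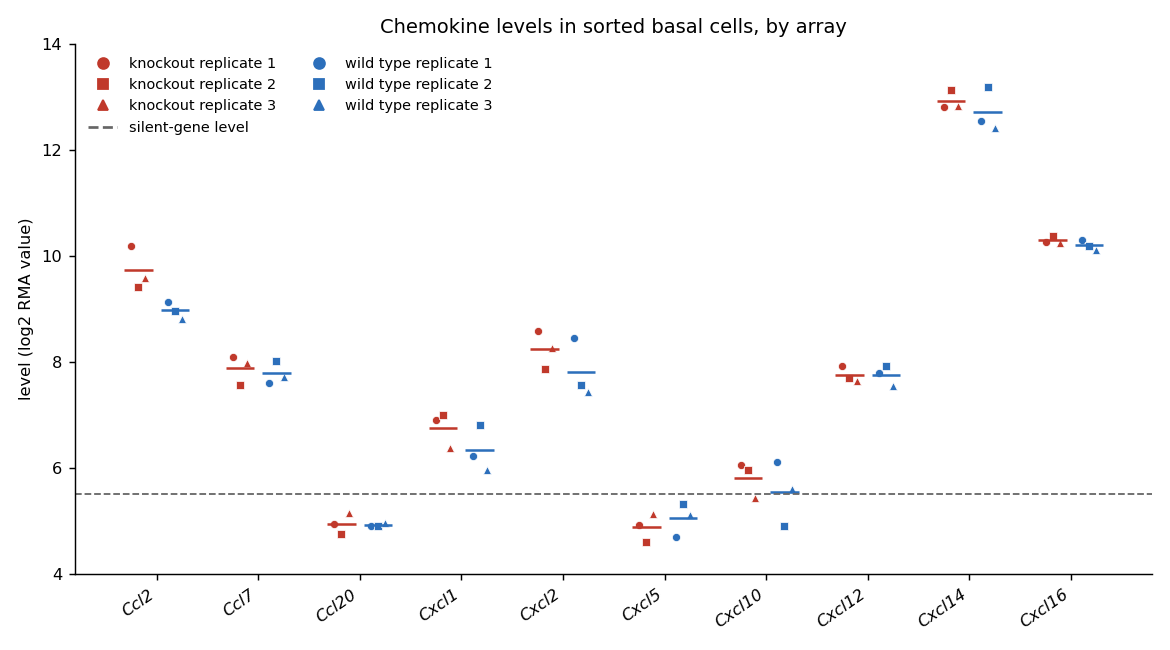
Level (log2 RMA value, vertical axis) of each of the 10 chemokines on the 3 knockout arrays (red) and the 3 wild type arrays (blue), with bars at the group means and a dashed line at the silent-gene level of 5.52. Ccl2 is the only one of the 10 whose knockout arrays all lie above its wild type arrays, and Ccl20 and Cxcl5 lie under the dashed line.

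No chemokine of the 10 passed the test between genotypes. In the limma fit over all genes, 0 of 10 had an adjusted p under 0.05, where 0% of the 22180 genes passed, and the adjusted p was 1.0 for each of the 10. At an unadjusted p under 0.05 there was 1 of the 10, Ccl2, where 3.32% of all genes were. With the replicate number as a block, 1112 genes in place of 736 had such an unadjusted p, and again 0 passed after adjustment. The log2 fold change was above 0 for 8 of the 10, against 48.3% of all genes, and the median was 0.15 over the 10 and -0.01 over all genes. Without wild type replicate 3 the median over the 10 was 0.06. For 9 of the 10 the 95% interval of the difference included 0.

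**Figure D2:**
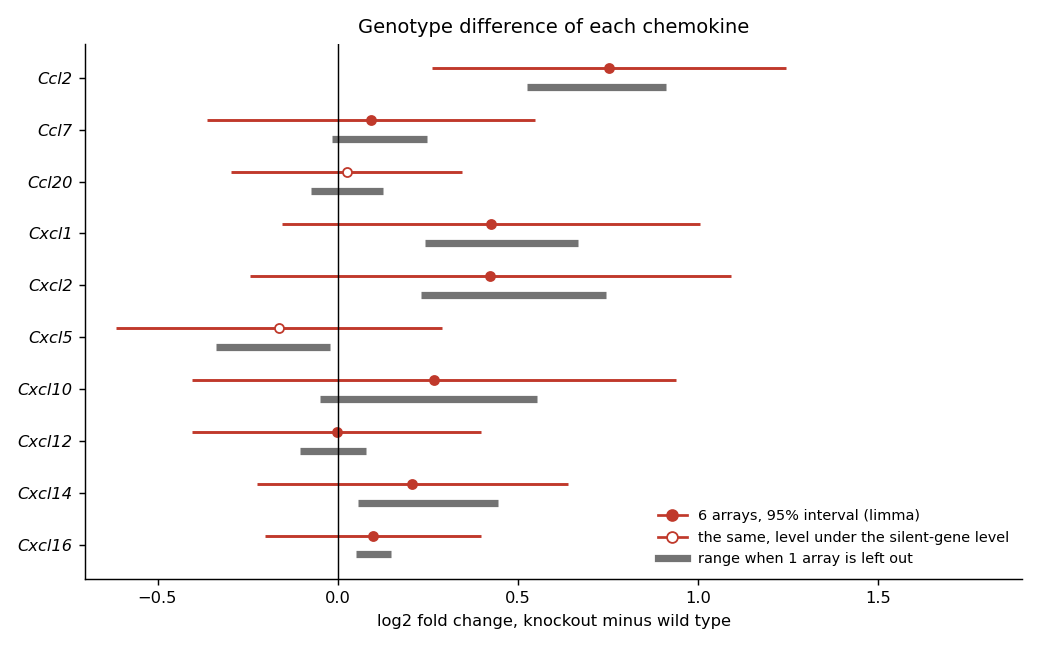
Log2 fold change of each chemokine, knockout minus wild type (horizontal axis), with the unadjusted 95% interval from the limma fit to 6 arrays (red) and the range of the value when each array is left out in turn (grey bar). Ccl2, at 0.75, has the only interval of the 10 that lies above 0, and open circles mark Ccl20 and Cxcl5, whose levels were under the silent-gene level.

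Among the CC ligands, Ccl2, which attracts monocytes through the receptor Ccr2, was the one with the widest gap between genotypes. Ccl2 read 10.18, 9.41 and 9.59 on the knockout arrays and 9.14, 8.97 and 8.81 on the wild type arrays. Every knockout array lay above every wild type array, with knockout replicate 1 the brightest by far. Groups parted in this way, with the knockout higher, for 1 of the 10 chemokines and for 3.63% of all genes, and in either direction for 1 of the 10 and 7.68% of all genes. The mean of Ccl2 was 9.73 ± 0.403 in knockout cells and 8.98 ± 0.166 in wild type cells (SD, n = 3 each). The log2 fold change was 0.75 (SE, standard error, 0.217), or 1.69 times, with a 95% interval of 0.26 to 1.24 on the log2 scale (limma adjusted p = 1.0). Its unadjusted limma p of 0.00711 ranked 111 among all genes. The exact two-sided permutation test gave 0.1, the smallest p that 3 arrays against 3 allow. Arrays of the same replicate number, which the labels do not pair, differed by 1.04, 0.44 and 0.78, all toward the knockout. The log2 fold change was 0.53 without knockout replicate 1.

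Ccl7, the gene next to Ccl2 and a ligand that also acts through Ccr2, had levels that overlapped between genotypes. It read 8.10, 7.57 and 7.98 in knockout cells and 7.61, 8.03 and 7.73 in wild type cells. The highest values were those of knockout replicate 1 and wild type replicate 2. The log2 fold change was 0.09 with a 95% interval of -0.36 to 0.55 (limma), and it became -0.01 when knockout replicate 1 was left out. Further along chromosome 11 the order of genes is Ccl11, Ccl12, Ccl8 and Ccl1. Of these, Ccl11 alone was above background, an eosinophil attractant also called eotaxin, at 7.44, 6.81 and 8.08 in knockout cells and 6.60, 6.80 and 7.55 in wild type cells. The groups of Ccl11 overlapped, and its log2 fold change was 0.46 (SE 0.346). The difference of 0.75 at Ccl2 thus stood beside values of 0.09 at Ccl7 and 0.46 at Ccl11, and the differences between these genes were not tested.

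**Figure D3:**
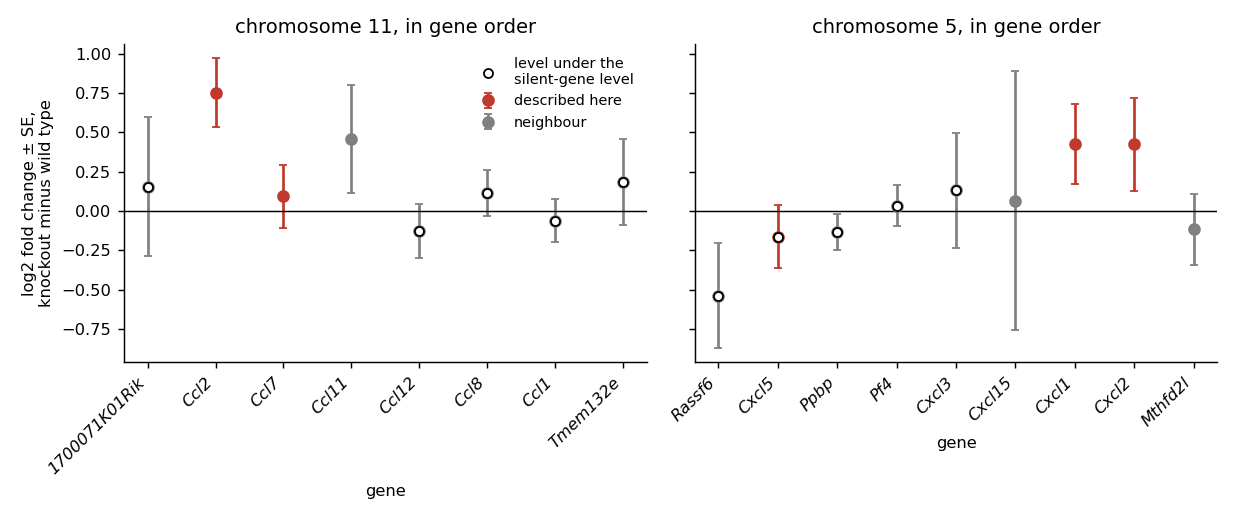
Log2 fold change, knockout minus wild type, with its standard error (vertical axis) for the genes around Ccl2 on chromosome 11 and around Cxcl1 on chromosome 5, in gene order by the RefSeq table. Red marks the chemokines described here, with Ccl2 at 0.75 beside Ccl7 at 0.09, and Cxcl1 and Cxcl2 at 0.43 and 0.42 beside Cxcl15 at 0.07 with a wide error. Open circles mark genes under the silent-gene level.

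Ccl20, which draws cells bearing Ccr6 to epithelia, was not above background. Its arrays read 4.95, 4.75 and 5.15 in knockout cells and 4.90, 4.91 and 4.96 in wild type cells. The wild type values lay within the knockout range.

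Cxcl1, Cxcl2 and Cxcl5 are CXC ligands of Cxcr2 that recruit neutrophils. Cxcl1 read 6.91, 7.01 and 6.37 on the knockout arrays and 6.23, 6.82 and 5.97 on the wild type arrays. In each genotype replicate 2 was the brightest and replicate 3 the dimmest, and the groups overlapped through wild type replicate 2. The means were 6.76 ± 0.340 in knockout cells and 6.34 ± 0.435 in wild type cells (SD, n = 3 each), and the log2 fold change was 0.43, with a 95% interval of -0.15 to 1.01 (limma). Cxcl2 read 8.58, 7.88 and 8.27 on the knockout arrays and 8.46, 7.56 and 7.44 on the wild type arrays. Here replicate 1 was the brightest in each genotype, and wild type replicate 1 lay above knockout replicates 2 and 3. The means were 8.24 ± 0.352 in knockout cells and 7.82 ± 0.558 in wild type cells (SD, n = 3 each), and the log2 fold change was 0.42, with a 95% interval of -0.24 to 1.09 (limma). The neighbours Cxcl1 and Cxcl2 thus had nearly the same mean difference, but the arrays were ordered differently. Same-numbered arrays differed by 0.68, 0.19 and 0.41 for Cxcl1 and by 0.12, 0.32 and 0.83 for Cxcl2, all toward the knockout. In the fit with the replicate block the standard errors were 0.172 for Cxcl1 and 0.188 for Cxcl2, and neither passed (limma adjusted p = 0.991 and 0.99).

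Cxcl5 was not above background, at 4.94, 4.60 and 5.13 in knockout cells and 4.71, 5.33 and 5.13 in wild type cells. The groups overlapped. Its mean lay 0.55 below the silent-gene level on the log2 scale, so 2 of the 3 Cxcr2 ligands described here were above background. How far probes for Cxcl1, Cxcl2 and the related Cxcl3 read each other's transcripts was not tested; Cxcl3 itself averaged 3.91, below background.

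Cxcl10, the interferon-induced ligand of Cxcr3 that attracts activated T cells, was close to background. It read 6.05, 5.97 and 5.43 on the knockout arrays and 6.12, 4.92 and 5.61 on the wild type arrays. Wild type replicate 1 was the highest of the 6 and wild type replicate 2 the lowest, so the wild type range enclosed the knockout range. The log2 fold change was 0.27 with a 95% interval of -0.40 to 0.94 (limma), and its sign turned to -0.05 without wild type replicate 2. The other Cxcr3 ligands Cxcl9 and Cxcl11 averaged 5.76 and 5.11.

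Cxcl12, the ligand of Cxcr4 and Ackr3 that retains and positions stem and immune cells in many tissues, had a nearly equal mean in both genotypes. It read 7.93, 7.69 and 7.64 in knockout cells and 7.80, 7.92 and 7.55 in wild type cells. The groups overlapped fully, and the means were 7.75 ± 0.157 in knockout cells and 7.76 ± 0.189 in wild type cells (SD, n = 3 each). The 95% interval of the log2 difference ran from -0.40 to 0.40 (limma).

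Cxcl14, an epithelial chemokine whose receptor is debated, gave a very bright signal. It read 12.81, 13.13 and 12.83 on the knockout arrays and 12.54, 13.19 and 12.41 on the wild type arrays. Replicate 2 was the brightest in each genotype, and wild type replicate 2 was the highest of all 6. The means were 12.92 ± 0.176 in knockout cells and 12.72 ± 0.415 in wild type cells (SD, n = 3 each), and the log2 fold change was 0.21, with a 95% interval of -0.23 to 0.64 (limma). The value was 0.06 without wild type replicate 3 and 0.44 without wild type replicate 2.

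Cxcl16, made as a membrane-bound protein that binds Cxcr6 and is released by the protease Adam10, varied least of the 10 over the 6 arrays. It read 10.27, 10.38 and 10.25 in knockout cells and 10.31, 10.19 and 10.11 in wild type cells, a range of 0.27. The groups overlapped, and the log2 fold change was 0.10 with a 95% interval of -0.20 to 0.40 (limma). Its sheddase Adam10 read 9.20, 9.22 and 9.37 in knockout cells and 8.77, 9.95 and 10.18 in wild type cells, so the wild type range enclosed the knockout range. Of 10 proteases and proteoglycans that cleave or bind chemokines, 8 were above background, 0 passed in either direction, and the median log2 fold change was -0.11. The heparan sulfate carrier Sdc1 had a log2 fold change of -0.27 with groups that did not overlap, and Sdc4 read 11.46 on average.

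The receptors for most of these ligands were dim in the sorted cells. Of 23 chemokine receptor genes 22 were measured, 8 were above background, 0 passed in either direction, and the median log2 fold change was -0.02. Ccr2, Ccr6 and Cxcr6, the receptors of Ccl2 and Ccl7, of Ccl20 and of Cxcl16, averaged 4.14, 4.09 and 4.13, and Cxcr2 averaged 5.51, at the edge of background. Both receptors of Cxcl12 were above it. Cxcr4 read 9.49, 9.36 and 9.54 in knockout cells and 9.58, 8.06 and 8.87 in wild type cells. The knockout arrays lay close together, while wild type replicate 1 was above them and wild type replicate 2 was well below, and the log2 fold change was 0.63 (SE 0.327; limma adjusted p = 1.0). Ackr3, which scavenges Cxcl12, read 8.07, 7.90 and 7.49 in knockout cells and 7.71, 7.86 and 7.19 in wild type cells. The groups of Ackr3 overlapped, and replicate 3 was the lowest in each. Cxcr3, the Cxcl10 receptor, averaged 6.15, and Ackr2, a scavenger of inflammatory CC ligands, averaged 6.45.

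**Figure D4:**
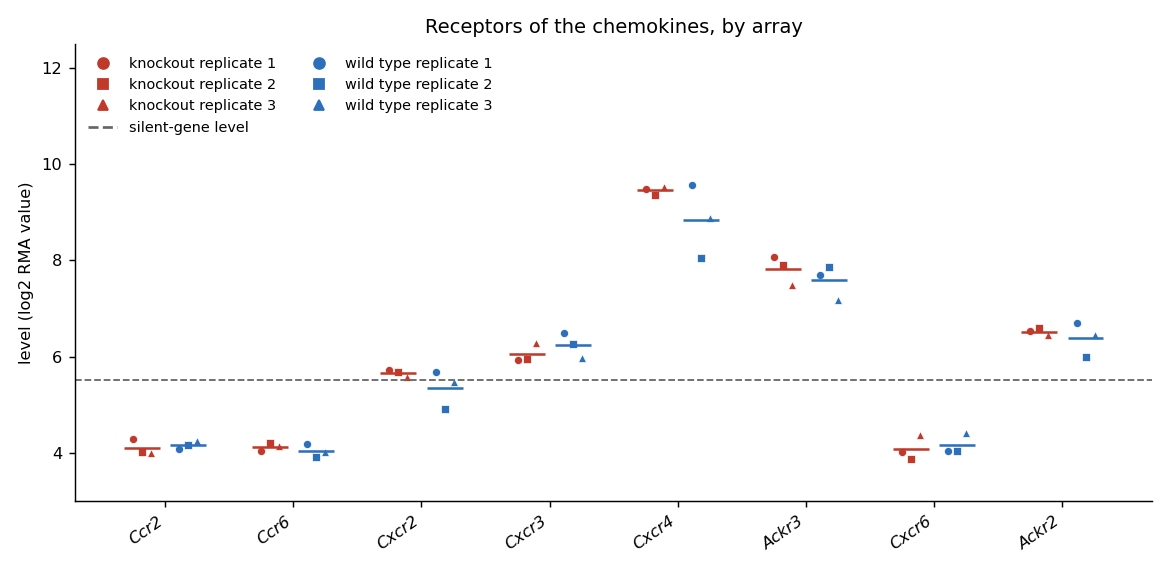
Level (log2 RMA value, vertical axis) of receptors of the 10 chemokines on the 3 knockout arrays (red) and the 3 wild type arrays (blue), with bars at the group means and a dashed line at the silent-gene level of 5.52. Cxcr4 and Ackr3, which bind Cxcl12, lie well above the line, and Ccr2, Ccr6 and Cxcr6 lie below it.

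The other chemokine ligands gave 26 measured genes of 31, with 13 above background, 0 passing in either direction and a median log2 fold change of 0.02. Cx3cl1, a membrane-tethered ligand of Cx3cr1, read 7.53, 7.53 and 7.19 in knockout cells and 7.24, 7.34 and 7.01 in wild type cells. Cxcl17, a mucosal chemokine, read 7.06, 6.95 and 6.40 in knockout cells and 6.96, 7.28 and 7.78 in wild type cells, a log2 fold change of -0.54 (SE 0.255). Both had overlapping groups.

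Genes that act upstream of the inducible chemokines were mixed. Of the NF-kappaB subunits, inhibitors and kinases 12 of 14 were measured, all 12 were above background, 0 passed, and the median log2 fold change was -0.07. Nfkbiz, a nuclear cofactor of NF-kappaB, read 7.44, 8.13 and 6.81 in knockout cells and 6.92, 7.50 and 6.42 in wild type cells. Its arrays had the order of Cxcl1 in each genotype, replicate 2 above 1 above 3, and the groups overlapped. Same-numbered arrays of Nfkbiz differed by 0.53, 0.63 and 0.39, all toward the knockout. Of 10 inducing cytokines and their receptors, 7 were above background and 0 passed, with a median log2 fold change of 0.03. Il6 read 8.16, 7.74 and 7.54 in knockout cells and 6.59, 7.77 and 6.87 in wild type cells, a log2 fold change of 0.74 (SE 0.307). Il1r1, the signalling receptor of interleukin 1, read 6.05, 5.98 and 5.46 in knockout cells and 6.16, 6.75 and 6.82 in wild type cells. All knockout values of Il1r1 lay below all wild type values, at a log2 fold change of -0.75 (SE 0.233), and neither gene passed (limma adjusted p = 1.0). Il1b, the cytokine interleukin 1 beta, was below background on all 6 arrays, at 4.83, 5.38 and 5.23 in knockout cells and 4.71, 4.57 and 4.60 in wild type cells, with every knockout array above every wild type array.

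Of the interferon receptors, STATs and IRFs, 10 of 11 were measured, all 10 were above background, 0 passed, and the median log2 fold change was 0.08. Irf7, which amplifies interferon production, read 8.12, 8.25 and 7.59 in knockout cells and 7.30, 7.32 and 6.89 in wild type cells. Every knockout array of Irf7 lay above every wild type array, at a log2 fold change of 0.81 (SE 0.221; limma adjusted p = 1.0). Irf1, which binds interferon-response elements, read 7.32, 8.27 and 6.72 in knockout cells and 6.80, 6.89 and 6.17 in wild type cells, with overlapping groups. Cxcl10, which carries such an element in the sequence above, did not have the array order of either gene. Of 6 regulators of chemokine mRNA decay, all 6 were above background and 0 passed, with a median log2 fold change of 0.04. Zfp36, or tristetraprolin, which promotes decay of such messages, read 11.58, 12.24 and 11.07 in knockout cells and 11.25, 11.45 and 10.86 in wild type cells, and the groups overlapped.

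Markers of other cells were set beside Ccl2, and in bulk RNA fewer cells of a type and less RNA per cell cannot be told apart. The list means of fibroblast and adipocyte markers parted between genotypes. Those of leukocyte, endothelial, pericyte and luminal markers overlapped. All 8 fibroblast markers were measured, 6 were above background by their mean over the 6 arrays, and all 8 had log2 fold changes above 0, with a median of 0.34 and 0 passing. That median was 0.225 without wild type replicate 3 and 0.51 without wild type replicate 1. The mean log2 level of the list was 7.05, 6.95 and 7.06 on the knockout arrays and 6.62, 6.54 and 6.32 on the wild type arrays, so the groups did not overlap, as for Ccl2. The 8 genes were uneven, and groups that did not overlap were found for 2 of them, Dpt and Lum, both higher in knockout cells. Among all genes 3.63% parted in that direction. At an unadjusted limma p under 0.05 there were 4 of the 8, where 3.32% of all genes were. Dpt, a matrix protein of fibroblasts, read 7.45, 7.47 and 7.50 in knockout cells and 6.06, 6.71 and 6.01 in wild type cells. Lum, a matrix proteoglycan, read 5.43, 4.72 and 6.09 in knockout cells and 4.23, 4.17 and 3.98 in wild type cells. Lum was above background on 1 knockout array and 0 wild type arrays. Pdgfra, a growth factor receptor of fibroblasts, read 6.64, 5.78 and 5.23 in knockout cells and 5.09, 5.49 and 4.51 in wild type cells. Its groups overlapped, with 2 knockout arrays and 0 wild type arrays above background. Dcn, a matrix proteoglycan and the brightest of the list, read 11.85, 11.93 and 12.11 in knockout cells and 11.92, 11.34 and 11.004 in wild type cells, which overlapped. The collagen genes Col1a1, Col1a2 and Col3a1, together with Pi16, had overlapping groups and log2 fold changes between 0.0016 and 0.14. Of 5 adipocyte markers 4 were measured, and their mean level ran from 6.39 to 6.63 in knockout cells and from 6.08 to 6.19 in wild type cells, which did not overlap. This parting came from Fabp4, and the mean of the 3 measured markers without it ran from 5.39 to 5.60 in knockout cells and from 5.38 to 5.52 in wild type cells, which overlapped. Fabp4, which adipocytes and endothelial cells make, had a log2 fold change of 1.31 that did not pass (limma adjusted p = 0.818), and Adipoq, made by adipocytes, averaged 4.29, below background. The part of these cells in the Ccl2 difference was not tested.

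Leukocyte markers were dim. All 16 were measured and 15 were below background by their mean over the 6 arrays, among them Ptprc, which encodes CD45, at 3.47, and the exception was Cd68, a lysosomal gene abundant in macrophages. Cd68 read 7.43, 7.65 and 7.45 in knockout cells and 7.22, 7.32 and 6.91 in wild type cells, groups that did not overlap, as for Ccl2, and its part in that difference was not tested. Lyz2 and Tyrobp, myeloid genes named after their values were seen, averaged 5.65 and 5.55 in knockout cells, above background, and 5.20 and 5.35 in wild type cells, below it. By array, Lyz2 was above background on 2 knockout arrays, Tyrobp on 1, and each on 0 wild type arrays. The groups of both genes overlapped. S100a9, a granulocyte gene also named after its values were seen, went the other way below background. It read 4.55, 4.16 and 4.46 in knockout cells and 4.75, 5.03 and 4.86 in wild type cells, groups that did not overlap. Groups thus parted for 1 of the 16 markers in each direction, where 7.68% of all genes parted in either direction. At an unadjusted limma p under 0.05 there was 1 of the 16, S100a9, where 3.32% of all genes were. S100a8, on the same list and below background, had a log2 fold change of 0.47 with overlapping groups. Itgam, Itgax and Adgre1, also below background, had log2 fold changes of -0.17, -0.20 and -0.05, and Csf1r had 0.0014. The groups of Itgam, Itgax, Adgre1 and Csf1r overlapped. Of the 16 log2 fold changes 10 were above 0 and 6 below, with a median of 0.06 and 0 passing. The mean level of the list ran from 4.90 to 5.07 in knockout cells and from 4.845 to 5.03 in wild type cells, which overlapped. Endothelial markers ran from 5.47 to 5.53 in knockout cells and from 5.29 to 5.52 in wild type cells, with 4 of 8 above background, and pericyte markers from 5.63 to 5.91 in knockout cells and from 5.49 to 5.87 in wild type cells, with 4 of 6. Luminal markers, 10 of 12 measured and 8 above background, ran from 7.74 to 7.95 in knockout cells and from 7.47 to 8.49 in wild type cells. Of their log2 fold changes 2 were above 0 and 8 below. Groups did not overlap for 1 of the 10, Csn3, which was higher in knockout cells at a log2 fold change of 0.84. Red blood cell markers were not analysed here.

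Immediate early genes respond to tissue dissociation, and the list of them used here also holds stress genes such as Hspa1a. The list mean had the replicate order of Cxcl1, but not every gene on it did. Hspa1a was highest at replicate 1 in each genotype, and Dusp1 was lowest there. All 14 were measured, all had log2 fold changes above 0, with a median of 0.36, and 0 passed. The median was 0.053 without knockout replicate 2, where 9 of 14 were above 0, and 0.17 without wild type replicate 3, where 10 of 14 were. Leaving out replicate 3 of the knockout gave a median of 0.55, and leaving out replicate 2 of the wild type gave 0.59, with all 14 above 0 in both. The mean level of the list was 10.15, 10.76 and 9.60 on the knockout arrays and 9.84, 10.22 and 9.36 on the wild type arrays. The groups overlapped, but each knockout array lay above the wild type array of its number, as for Ccl2, Cxcl1 and Cxcl2. The means of the endothelial, interferon and mRNA decay lists, among others, had this relation too. By the mean of the immediate early list, replicate 2 was highest and replicate 3 lowest in each genotype, as for Cxcl1 and Nfkbiz. Ccl2, in contrast, was highest at replicate 1 in each. This order was not particular to these genes. The mean of the basal markers had it too, at 10.09, 10.35 and 9.95 in knockout cells and 10.01, 10.25 and 9.98 in wild type cells. So did the means of the NF-kappaB list and of the mRNA decay list. The part of dissociation in the chemokine levels was not tested.

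**Figure D5:**
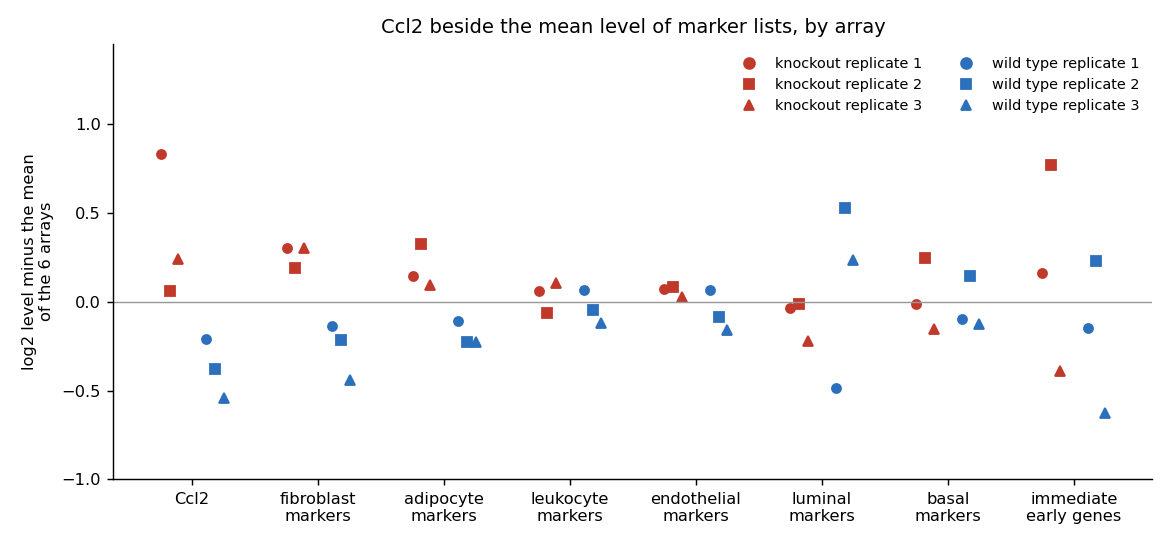
Log2 level minus the mean of the 6 arrays (vertical axis) for Ccl2 and for the mean of 6 marker lists and of the immediate early genes, on the knockout arrays (red) and the wild type arrays (blue). The knockout and wild type points part for Ccl2, for the fibroblast markers and, through Fabp4, for the adipocyte markers, and overlap for the other lists drawn. Each knockout point of the immediate early genes, and of the endothelial markers, lies above the wild type point of its number.

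The 3 chemokines with the widest range over the 6 arrays were Ccl2, Cxcl10 and Cxcl2, at 1.37, 1.20 and 1.15 on the log2 scale. For each the genes with the most similar pattern were found by the root mean square difference of mean-centred log2 values over the 6 arrays, among all genes, a search in which some close matches arise from the number of genes alone. Nearest to Ccl2 were Ctss, at 0.0782, then Dscam and Mrgpra2b, both at 0.159. Ctss, which encodes the lysosomal protease cathepsin S, read 7.35, 6.56 and 6.67 in knockout cells and 6.45, 6.12 and 5.87 in wild type cells. Its groups did not overlap, which a search for likeness to Ccl2 favours, so this is not separate evidence of a genotype difference. Nearest to Cxcl10 were Has1, Zfp189 and Cfap69, at 0.0887, 0.0942 and 0.111. Nearest to Cxcl2 were Ptbp2, Gm6337 and Gm20744, at 0.0908, 0.105 and 0.108.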

How the data were processed

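The deposited values are log2 signals per probe set from biotin-labelled whole-transcript arrays. The authors made them with RMA, and Transcriptome Analysis Console 4.0 was used, per the submitters' processing notes. The genome build is not given in the sources used here. An array has no read depth, and scan dates were not used here.

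Of 41345 rows, 23521 had 1 gene symbol, 1814 several, and 16010 were unnamed here. Per gene the row of highest mean over 6 arrays was kept, leaving 22180 genes. Genotypes were compared by limma 3.58.1 (R 4.3.3; lmFit, and eBayes with a trend), two-sided, over all genes, adjusted by Benjamini-Hochberg, at a threshold of 0.05. Fold changes are knockout minus wild type. The members and gene lists were chosen with earlier results of these data known. All 10 members are named; of other lists, genes above the silent-gene level, with fold changes for at most the 4 of smallest p, and receptors of members at any level. Listed genes below that level that are not such receptors fall outside this rule. Cxcl3, Cxcl11, Il1b, Lum, Pdgfra, Adipoq, Ptprc, Lyz2, Tyrobp, S100a9, S100a8, Itgam, Itgax, Adgre1 and Csf1r were named after their values were seen. Ccl1, Ccl8 and Ccl12 were named for their place in the gene order. Fold changes beyond the 4 of smallest p are also given, outside the rule, for Col1a1, Col1a2, Col3a1, Pi16, Itgam, Itgax, Adgre1, Csf1r and Cxcl15.

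Deviations from the group means correlated with r of 0.121, 0.25 and 0.127 between same-numbered arrays, across genes. Wild type replicate 1 correlated slightly more, at 0.13, with knockout replicate 3. The main fit did not use the replicate numbers, and the fit with them as a block is an alternative. The fit was tested on simulated arrays of the 22180 genes in 20 runs of 200 changed genes. It recovered 3.2% of changes of 0.5, 46.6% of changes of 1 and 91.9% of changes of 2 on the log2 scale, with 4.85 false calls per run. The simulated noise was normal and independent between genes, so these rates may not hold for the real arrays. Alternatives changed the prior, weights, normalization, centring, filter, rows and arrays used. Figures were drawn with matplotlib 3.10.9.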

Additional observations from a re-analysis of the deposited data

How the results depend on the processing

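With limma, 0 genes and 0 of the 10 chemokines passed under every alternative run, including the replicate block and leaving out any 1 array. The blocked adjusted p of Ccl2 was 0.742, and over all alternatives it lay between 0.422 and 1.0. The replicate block changed no call. At an unadjusted p under 0.05 the count was 736 genes, against 1112 with the replicate block, 1970 with array weights, 1788 without wild type replicate 1, 1444 over all 41345 rows and 360 over the 12295 genes above the silent-gene level. The log2 fold change of Cxcl12 turned to 0.15 with array weights and to 0.018 with quantile normalization. When 1 array was left out, the values lay between -0.11 and 0.080 for Cxcl12, between -0.015 and 0.25 for Ccl7, between -0.075 and 0.12 for Ccl20 and between -0.049 and 0.55 for Cxcl10, and the cause was not tested. Ccl2 lay between 0.53 and 0.91, Cxcl1 between 0.24 and 0.67 and Cxcl2 between 0.23 and 0.74. The median over the 10 lay between 0.06 without wild type replicate 3 and 0.19. Of the 15 other lists, 8 had a median that changed sign when 1 array was left out. The count of chemokines with groups that do not overlap, 1 of 10, lay between 1 and 3 when 1 array was left out. It was 2 with knockout replicate 3 left out and 3 with wild type replicate 1 or 2 left out, where fewer arrays also raise the share of all genes, to 16.4, 24.3 and 18.4%. The count with a log2 fold change above 0, recomputed after seeing the data, lay between 7 and 9. Above the 99th percentile of silent genes there were 7 chemokines in knockout cells and 6 in wild type cells. A low signal limits Ccl20, Cxcl5 and Cxcl10.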

Other observations

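Cxcl15, a neutrophil attractant first described in mouse lung, lies between Cxcl3 and Cxcl1 in the gene order of chromosome 5 and varied most of the chemokine ligands measured. It read 9.76, 8.74 and 8.97 in knockout cells and 6.81, 10.68 and 9.79 in wild type cells. Wild type replicate 1 was the lowest of the 6 and wild type replicate 2 the highest, a range of 3.87 on the log2 scale, and the log2 fold change was 0.07 with a standard error of 0.821. The luminal marker list was also lowest on wild type replicate 1, at 7.47, and highest on wild type replicate 2, at 8.49. Cxcl1 and Cxcl2, its neighbours in that order, had neither extreme on those arrays in common with it.

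Ccrl2, an atypical receptor that binds chemerin, read 6.89, 6.12 and 6.39 in knockout cells and 6.13, 7.10 and 5.87 in wild type cells. Its groups overlapped.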
